A study of Mus musculus with 12 samples.

Results

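The genes described here are 10 transcripts often named as targets of the FOXO transcription factors in stress and metabolism: Gadd45b, Gadd45g, Sesn1, Sesn2, Sesn3, Txnip, Ccng2, Irs2, Sod2 and Bcl6. They were chosen by symbol, with earlier results of these data known, out of 22180 genes that had a probe set naming them alone. All 10 were found. Where a gene had several probe sets, the brightest over the 12 arrays stood for it. The cells on the Affymetrix whole-transcript arrays were murine MP cells, which model the Group 3 form of medulloblastoma, a childhood brain tumour of the cerebellum, under high MYC. They are known from the published model as cerebellar progenitors transformed by Myc together with a dominant-negative form of p53. The tumour cells were taken from the cerebella of NSG mice, which are immunodeficient, and were plated as single cells in NeuroCult medium with proliferation supplement. The groups, of 3 arrays each, were cells given 25 nM LBH589 for 6 h, cells given 25 nM LBH589 for 12 h, cells given 0.00025% DMSO for 6 h and cells given 0.00025% DMSO for 12 h. LBH589, or panobinostat, inhibits histone deacetylases, and DMSO is its solvent. In each group the 3 arrays came from the tumours MP525, MP567 and MP570. Every group therefore holds cultures of cells from MYC-driven tumours, and no group of normal cells was measured. The study asked how this kind of inhibitor is toxic to the cells, and set it against its solvent after each time. The labels name tumours and not animals, and each array is 1 culture. In the fit of the group means, the p-values measure the spread between cultures of different tumours within a group. That spread includes differences in level between the tumours. In fits that include the tumour, the p-values measure the spread between cultures that is left.

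FOXO proteins are transcription factors that insulin signalling holds out of the nucleus: the kinase AKT phosphorylates them, and when that signal falls they enter the nucleus and switch on genes for growth arrest, repair, antioxidant defence and insulin sensing. The genes here stand at the output end. GADD45 proteins bind stress kinases and cell cycle kinases, sestrins restrain the growth kinase complex mTORC1, TXNIP binds thioredoxin and limits glucose uptake, cyclin G2 is an atypical cyclin linked to cell cycle exit, IRS2 couples the insulin receptor to PI3K, SOD2 clears superoxide in mitochondria, and BCL6 is a transcriptional repressor. Many of them answer to other regulators as well, among them p53, ATF4, NF-kB and the glucose-sensing factor MLXIPL.

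Array medians lay between 7.10 and 7.21 on the log2 scale, and any pair of arrays correlated at 0.965 to 0.991. All 10 genes were among the 18652 bright enough to be tested. Of the markers used to check the cells, 4 of 5 for neural progenitors and MYC-driven medulloblastoma (Myc, Nes, Prom1 and Npr3) lay above the array median on all 12 arrays, and Sox2 lay below it on 4. Their summed level was 10.95 to 11.40 in LBH589 and 11.73 to 12.40 in DMSO at 6 h, and 11.12 to 11.74 in LBH589 and 11.73 to 12.31 in DMSO at 12 h (log2 of the summed linear values). Within this list Npr3 was called lower in LBH589 at 6 h (log2 fold change -1.63, limma adjusted p = 0.00165) and at 12 h (-1.61, 0.00146), and Prom1 at 12 h (-0.98, 0.00295). Myc itself had 0.09 at 6 h and 0.21 at 12 h and was not called. The part of the lower Npr3 and Prom1 in the results below was not tested. Of 21 measured markers of microglia, astrocytes, oligodendrocytes, endothelium and fibroblasts, 0 were called at 6 h and 0 at 12 h by limma, and the summed levels of each of those 5 lists overlapped between LBH589 and DMSO at both times. Some of these markers also lay above the array median on all 12 arrays. They were 3 of 7 for microglia and macrophages and 0 of 4 for astrocytes. They were 2 of 3 for oligodendrocytes, 2 of 3 for endothelium and 2 of 4 for fibroblasts and pericytes. A level above the array median thus does not set tumour cells apart from other cells. In RNA of whole cultures, fewer cells of a type and less RNA per cell cannot be told apart.

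The sequences ahead of the start sites are shown here because several of these genes moved together and all are named as FOXO targets. RefSeq (GRCm38.p6) gave 12 promoter windows for the 10 genes, with a pair of start sites each for Sesn1 and Bcl6. A window ran from 250 bases before the start to 50 after it. The core letters of a FOXO site, GTAAACA, were found on either strand in 2 of the 12 windows, those of Txnip and of the first Sesn1 start, and in 3.65% of all 32851 windows of the table. The Txnip match began 121 bases before the start, in the forward direction, and lay between a pair of CCAAT boxes. The Sesn1 match began 23 bases after it. An E-box, CACGTG, the core motif of MYC with MAX, was found in 4 of the 12 windows and in 7.15% of all windows. Its 4 genes were Gadd45b, Gadd45g, Irs2 and Bcl6, at 185, 142, 44 and 60 bases before the start. Below are the 250 bases before the start of those 4 genes and of Txnip, 5′ to 3′ on the gene's strand, with GTAAACA and CACGTG in capitals. The Gadd45b stretch is chr10:80929841-80930090 (+), that of Gadd45g chr13:51846425-51846674 (+), that of Txnip chr3:96557707-96557956 (+), that of Irs2 chr8:11008930-11009179 (-), and that of Bcl6 chr16:23988853-23989102 (-).
Txnip: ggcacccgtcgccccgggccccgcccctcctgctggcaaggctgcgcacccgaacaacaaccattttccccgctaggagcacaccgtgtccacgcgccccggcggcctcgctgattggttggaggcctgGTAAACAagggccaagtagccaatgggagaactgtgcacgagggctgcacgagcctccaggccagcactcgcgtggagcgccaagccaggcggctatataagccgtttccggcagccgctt
Gadd45b: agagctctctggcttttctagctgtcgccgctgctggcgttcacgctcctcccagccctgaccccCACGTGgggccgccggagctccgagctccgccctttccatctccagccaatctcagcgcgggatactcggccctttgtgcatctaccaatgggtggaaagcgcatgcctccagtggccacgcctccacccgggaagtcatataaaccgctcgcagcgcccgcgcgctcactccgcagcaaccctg
Gadd45g: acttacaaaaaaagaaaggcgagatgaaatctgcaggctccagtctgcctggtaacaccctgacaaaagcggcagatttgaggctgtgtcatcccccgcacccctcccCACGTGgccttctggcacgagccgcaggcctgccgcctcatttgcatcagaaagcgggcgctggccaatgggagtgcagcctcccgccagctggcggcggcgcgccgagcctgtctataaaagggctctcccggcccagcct
Irs2: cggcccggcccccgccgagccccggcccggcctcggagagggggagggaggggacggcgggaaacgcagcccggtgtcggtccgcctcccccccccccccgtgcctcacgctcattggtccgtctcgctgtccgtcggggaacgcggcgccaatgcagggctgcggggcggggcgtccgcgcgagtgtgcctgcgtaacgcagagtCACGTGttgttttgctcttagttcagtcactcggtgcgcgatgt
Bcl6: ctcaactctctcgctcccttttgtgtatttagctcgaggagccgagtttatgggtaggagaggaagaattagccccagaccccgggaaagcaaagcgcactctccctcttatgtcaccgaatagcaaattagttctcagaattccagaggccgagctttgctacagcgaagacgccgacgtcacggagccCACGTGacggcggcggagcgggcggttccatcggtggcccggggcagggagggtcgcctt

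Gadd45b and Gadd45g also shared a TATA box, TATAAA, which stood in 2 of the 12 windows and in 13.6% of all windows. It began 46 bases before the start in Gadd45b and 27 in Gadd45g. CCAAT boxes, searched as CCAAT, stood in 9 of the 12 windows (37.4% of all windows). GC boxes, searched as GGGCGG, stood in 10 (35.7%). The AP-1 letters TGACTCA stood in 0 of the 12 and in 5.20% of all. The 250 bases before the starts were 54.8 to 72.8% G and C in these windows, against a median of 52.4% over the table. A match of letters is a description and not a bound site, and no match says only that these letters are not in the window.

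**Figure D1:**
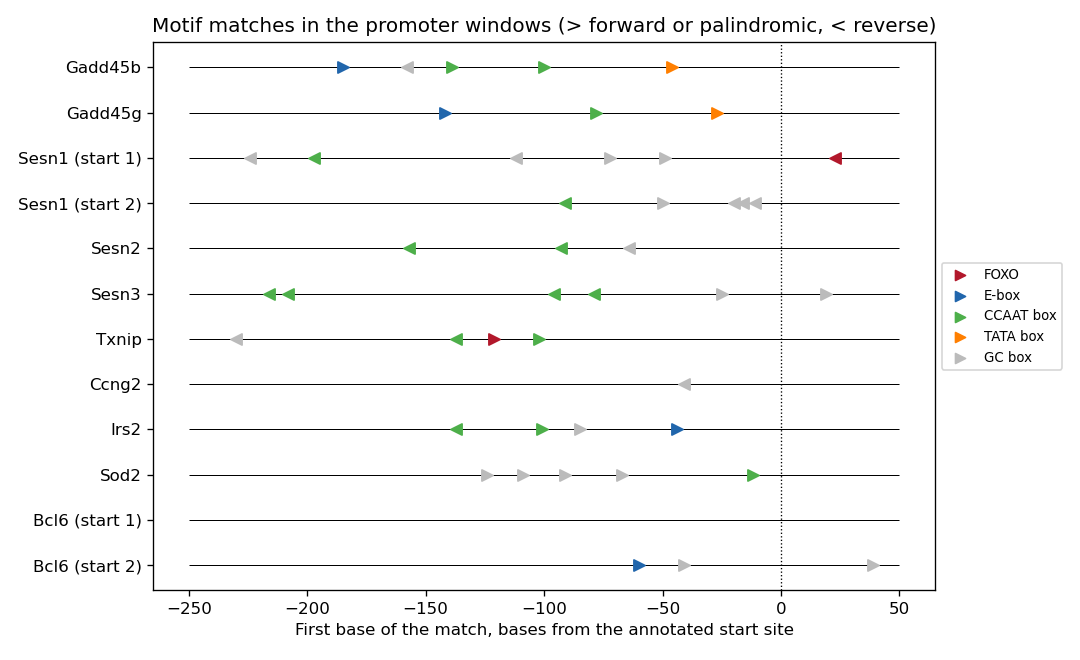
Motif matches in the 12 promoter windows of the 10 genes. The x axis gives the first base of each match in bases from the annotated start site, each row is a window, and triangles point along the strand of the match (E-boxes read the same on both strands). FOXO letters appear in the Txnip window 121 bases before the start and in the first Sesn1 window 23 bases after it, and E-boxes in Gadd45b, Gadd45g, Irs2 and Bcl6.

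LBH589 raised 6 of the 10 genes at 6 h, and the same 6 at 12 h: Gadd45b, Sesn2, Sesn3, Txnip, Irs2 and Bcl6 (limma, 1 fit over all genes, Benjamini-Hochberg adjusted p under 0.05). None of the 10 was called lower at either time. Over all tested genes, 8.49% were called higher at 6 h and 9.13% at 12 h, and 7.31% and 9.07% were called lower. The median log2 fold change of the 10 genes was 0.57 at 6 h and 0.72 at 12 h, against -0.02 and 0.01 for all tested genes. Because the 10 were chosen with earlier results of these data known, the counts and medians beside all genes are a description and not a test. At each time 8 of the 10 were higher and 1, Sesn1, was lower in all 3 tumours. The share of all tested genes with the same direction in all 3 tumours was not counted, so this does not set the 10 apart. In 7 of the 10 genes at each time, all LBH589 values lay above all DMSO values. Groups that did not overlap, in either direction, were found for 32.9% of all tested genes at 6 h and 32.0% at 12 h. Adding the tumour to the fit as a block, which takes out the differences in level between tumours, gave 8 of the 10 called higher and 1 lower at 6 h, and 7 higher and 1 lower at 12 h. That fit called 34.0% of all tested genes at 6 h, 18.0% higher and 16.0% lower, and 37.1% at 12 h, 18.6% higher and 18.5% lower. The 6 genes named above were called higher at both times in the blocked fit too. Their highest adjusted p there was 0.001165 at 6 h (Bcl6) and 0.001428 at 12 h (Sesn2). Without the block, leaving out 1 array left 2 to 6 genes called higher at 6 h and 5 to 6 at 12 h, and leaving out all arrays of 1 tumour left 2 to 3 and 3 to 6. For drug effects, arrays and tumours were left out only in the fit without the block, here and below, where the spread includes level differences between tumours.

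**Figure D2:**
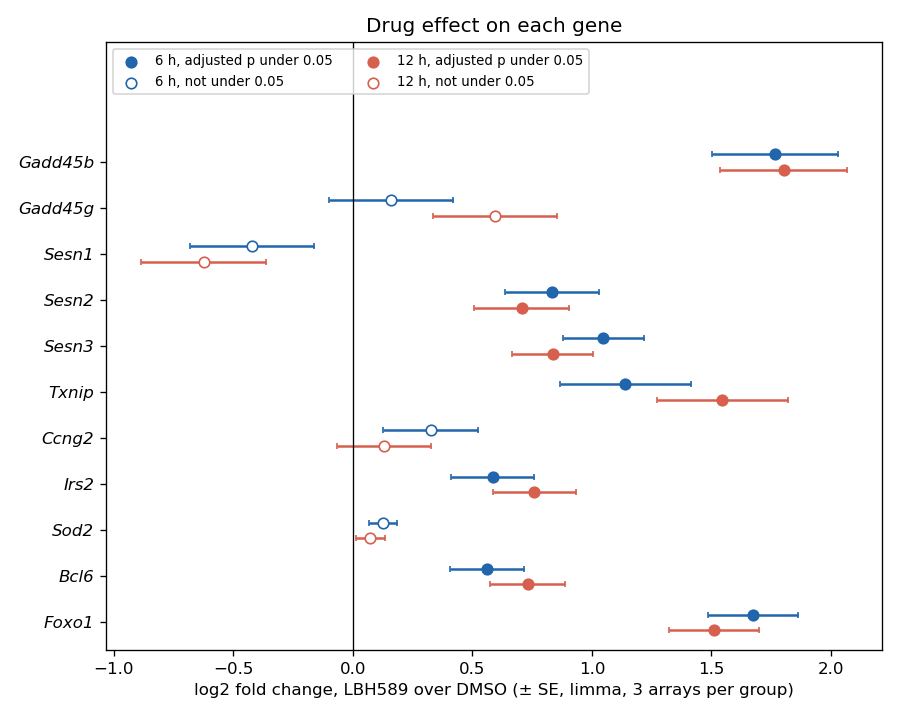
Log2 fold change of LBH589 over DMSO at 6 h (blue) and 12 h (red) for each gene and for Foxo1, with bars of 1 standard error from limma (3 arrays per group). Filled points have an adjusted p under 0.05: Gadd45b, Sesn2, Sesn3, Txnip, Irs2, Bcl6 and Foxo1 are filled at both times, and Sesn1 lies left of zero.

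Gadd45b, which encodes a stress sensor that binds the p38 pathway kinase MAP3K4 and CDK1, rose most of the 10. At 6 h its log2 values were 10.72 in MP525, 11.31 in MP567 and 10.66 in MP570 in LBH589, against 9.37, 9.06 and 8.96 in DMSO. At 12 h they were 10.83, 11.52 and 10.50 in LBH589, against 9.44, 9.18 and 8.83 in DMSO. Every LBH589 array thus stood more than 1 log2 unit above every DMSO array of its time, and MP567 was the highest of the treated cultures while MP525 was the highest of the solvent cultures. The log2 fold changes were 1.77 ± 0.26 at 6 h and 1.80 ± 0.26 at 12 h (± SE, limma adjusted p = 0.00124 and 0.000891), which are 3.40-fold and 3.49-fold. Among the 18652 genes this ranked 24 from the top at 6 h and 28 at 12 h. The call held without each single array and each tumour.

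Gadd45g encodes a protein of the same family. Its log2 values at 6 h were 9.83, 10.42 and 9.84 in LBH589 (MP525, MP567, MP570), against 10.08, 9.95 and 9.58 in DMSO. At 12 h they were 10.09, 10.88 and 10.05 in LBH589, against 10.04, 9.83 and 9.37 in DMSO. The groups overlapped at 6 h, where MP525 was lower in LBH589, and at 12 h the lowest treated value, 10.05, stood just above the highest solvent value, 10.04. Log2 fold changes of 0.16 ± 0.26 (95% interval -0.41 to 0.73) and 0.60 ± 0.26 (0.03 to 1.16) missed the threshold (limma adjusted p = 0.768 and 0.143). Once tumours were blocked, Gadd45g was called higher at 12 h (adjusted p = 0.00907) and was not called at 6 h (0.508).

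The sestrins bind the GATOR2 complex and so hold back mTORC1, and Sesn2 and Sesn3 rose with LBH589 while Sesn1 did not. Sesn2, which encodes a leucine sensor, had log2 values at 6 h of 9.76, 9.45 and 9.69 in LBH589 (MP525, MP567, MP570), against 8.94, 8.28 and 9.18 in DMSO. At 12 h these were 9.17, 9.18 and 9.02 in LBH589, against 8.51, 8.25 and 8.49 in DMSO. Treated and solvent values did not overlap at either time, and every tumour was lower at 12 h than at 6 h under both treatments. The log2 fold changes were 0.83 ± 0.20 and 0.71 ± 0.20 (limma adjusted p = 0.0147 and 0.0280). The Sesn2 call did not hold at 6 h on removing the LBH589 array of MP525 (0.0565) or MP570 (0.0531), nor at 12 h on removing any of the 6 arrays of that time (0.0518 to 0.0930). Without MP525 or MP570 as a whole it was lost at 6 h (0.149 and 0.0673) and at 12 h (0.165 and 0.104).

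Sesn3, the sestrin gene most often tied to FOXO, had log2 values at 6 h of 10.31, 9.98 and 10.27 in LBH589 (MP525, MP567, MP570), against 9.25, 9.08 and 9.09 in DMSO. At 12 h the values were 10.53, 10.03 and 10.36 in LBH589, against 9.59, 9.67 and 9.16 in DMSO. The groups were apart at both times, and MP567 at 12 h had the smallest difference within a tumour, 0.36. Log2 fold changes were 1.05 ± 0.17 and 0.84 ± 0.17 (limma adjusted p = 0.00198 and 0.00580). No single array ended the Sesn3 call, and leaving out MP570 at 6 h (0.0508), or MP525 (0.0710) or MP570 (0.126) at 12 h, did.

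Sesn1, known as a p53 target and a FOXO target, had log2 values at 6 h of 10.47, 10.59 and 11.04 in LBH589 (MP525, MP567, MP570), against 10.68, 11.13 and 11.55 in DMSO. At 12 h it had 10.58, 10.40 and 10.93 in LBH589, against 10.78, 11.40 and 11.61 in DMSO. Each tumour was lower in LBH589 at each time, but the tumours differed in level and the groups overlapped. The log2 fold changes of -0.42 ± 0.26 (95% interval -0.99 to 0.15) and -0.62 ± 0.26 (-1.19 to -0.05) missed the threshold without the block (limma adjusted p = 0.339 and 0.125). Blocked by tumour, Sesn1 was called lower at both times (adjusted p = 0.0132 and 0.000858), so in that fit Sesn1 and the other 2 sestrin genes were called in opposite directions. Taking the tumour as a random block instead, Sesn1 was called lower at 12 h (0.00910) and not at 6 h (0.0685). Without the block it was called at 12 h when the DMSO array of MP525 was left out (-0.87, adjusted p = 0.0467).

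Txnip encodes an arrestin that binds thioredoxin and promotes the internalisation of glucose transporters. Its log2 values at 6 h were 11.52, 11.78 and 10.98 in LBH589 (MP525, MP567, MP570), against 10.56, 10.57 and 9.73 in DMSO. At 12 h they were 11.82, 12.09 and 11.66 in LBH589, against 10.52, 10.56 and 9.85 in DMSO. MP570 was the lowest tumour in all 4 groups, and no treated value fell to a solvent value of its time. The log2 fold changes were 1.14 ± 0.27 and 1.54 ± 0.27 (limma adjusted p = 0.0158 and 0.00269), or 2.20-fold and 2.92-fold. The Txnip call did not hold at 6 h on removing the LBH589 array of MP525 (0.0542) or MP567 (0.0581) or the DMSO array of MP570 (0.0534), or all arrays of MP525 (0.129) or of MP567 (0.0653). At 12 h it held without each array and each tumour. Probe sets that name Txnip or Irs2 together with another gene were not used.

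Irs2, the adaptor that links the insulin and IGF1 receptors to PI3K, had log2 values at 6 h of 8.95, 9.38 and 8.93 in LBH589 (MP525, MP567, MP570), against 8.53, 8.67 and 8.30 in DMSO. At 12 h it had 9.26, 9.26 and 8.84 in LBH589, against 8.26, 8.58 and 8.24 in DMSO. The groups were apart at both times. Log2 fold changes were 0.58 ± 0.17 and 0.76 ± 0.17 (limma adjusted p = 0.0404 and 0.0105). The 6 h call of Irs2 was lost without any 6 h array other than the DMSO array of MP567, and without the DMSO 12 h array of MP525 or MP570 (0.0503 to 0.140). Removing all arrays of MP525, of MP567 or of MP570 also ended it (0.173, 0.0908 and 0.161), as did every probe set on its own (0.0637). So did a change of scaling, after quantile normalization (0.0653) and with arrays centred on their medians (0.0526). At 12 h it was lost only without MP525 as a whole (0.155), among the arrays and tumours left out.

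Bcl6, a zinc finger repressor that FOXO factors are known to induce in lymphocytes, had log2 values at 6 h of 8.39, 8.37 and 8.14 in LBH589 (MP525, MP567, MP570), against 7.85, 7.70 and 7.67 in DMSO. At 12 h the values were 8.61, 8.25 and 8.35 in LBH589, against 7.90, 7.80 and 7.32 in DMSO. Again the groups did not overlap. Log2 fold changes were 0.56 ± 0.16 and 0.73 ± 0.16 (limma adjusted p = 0.0306 and 0.00741). At 6 h the Bcl6 call was lost without any 6 h array other than the LBH589 array of MP570 (0.0506 to 0.0984) and on removing all arrays of MP525, of MP567 or of MP570 (0.122, 0.173 and 0.0754). At 12 h it was lost without MP570 as a whole (0.0702).

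Ccng2 and Sod2 were not called at either time without the block. Ccng2 lay between 9.16 and 9.61 in LBH589 and between 8.73 and 9.28 in DMSO at 6 h, and between 9.06 and 9.60 in LBH589 and between 9.04 and 9.49 in DMSO at 12 h. These groups overlapped at both times. Its log2 fold changes were 0.33 (95% interval -0.11 to 0.76) and 0.13 (-0.30 to 0.56), with limma adjusted p of 0.327 and 0.726, and blocked by tumour it was called higher at 6 h (0.0486), but not with a random block (0.0979). Sod2, the mitochondrial manganese superoxide dismutase, lay between 12.72 and 12.86 in LBH589 and between 12.60 and 12.70 in DMSO at 6 h, and between 12.65 and 12.75 in LBH589 and between 12.59 and 12.68 in DMSO at 12 h. The 6 h groups were apart by a narrow margin, and every tumour was higher in LBH589 at both times. Its log2 fold changes were 0.13 (-0.004 to 0.26) and 0.07 (-0.06 to 0.20), with limma adjusted p of 0.192 and 0.458, and blocked by tumour it was called higher at 6 h (0.0376).

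**Figure D3:**
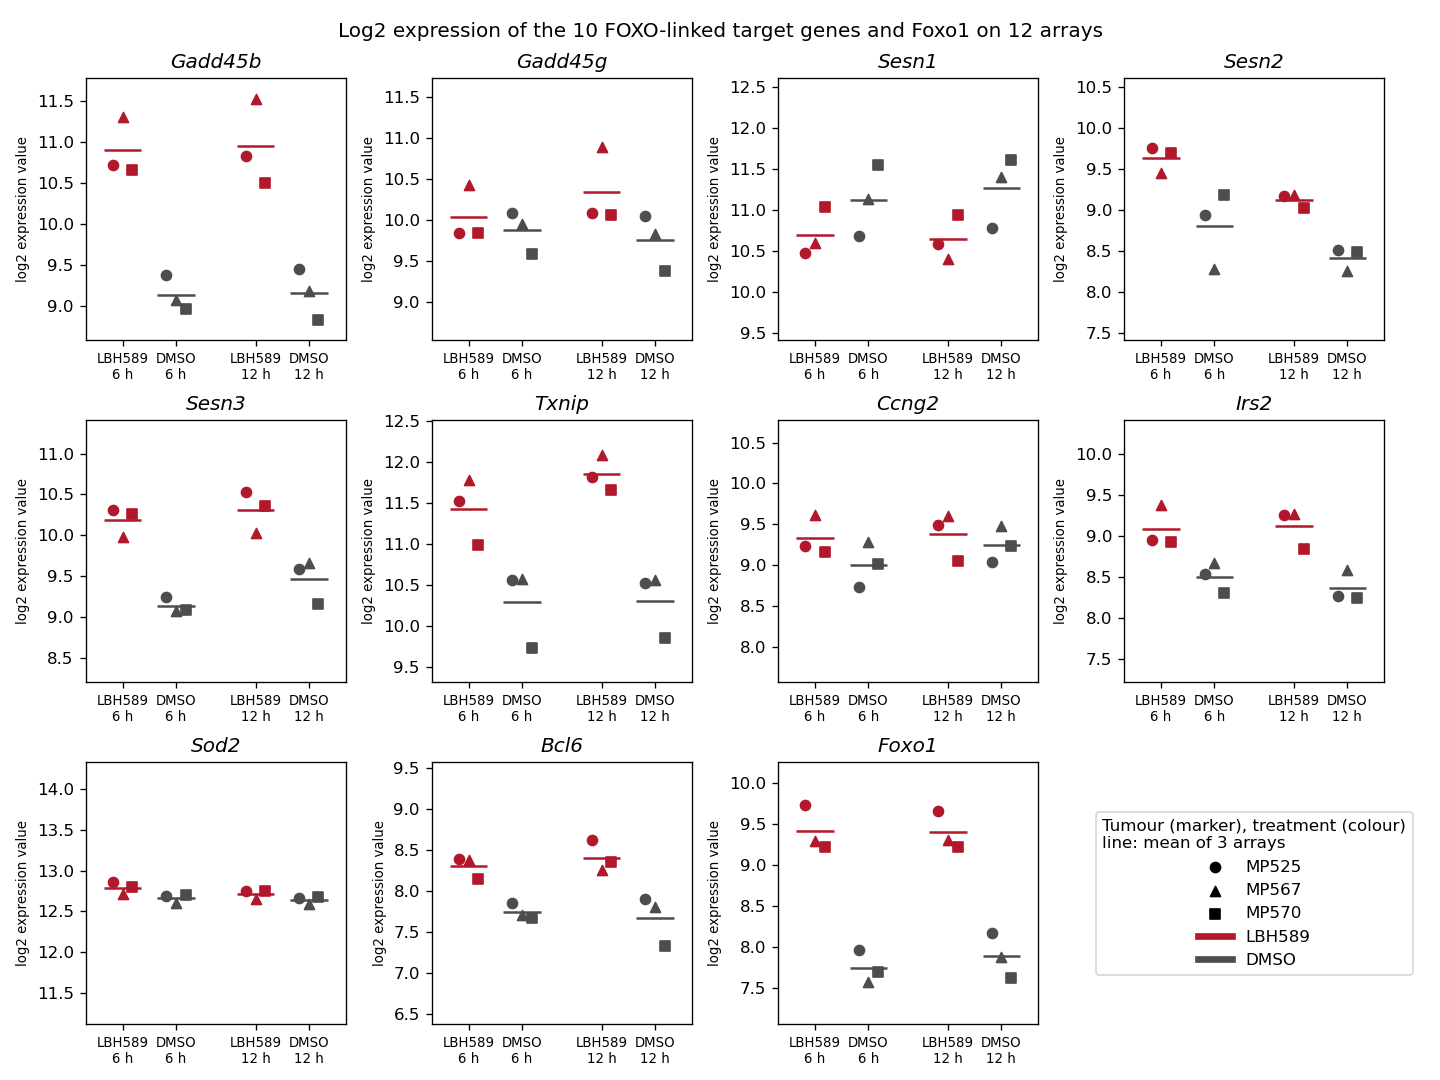
Log2 expression value on each of the 12 arrays for the 10 genes and Foxo1, by treatment and time, with a line at the mean of the 3 arrays. Markers show the tumour, colours the treatment, and every panel spans the same range of log2 units. Treated values lie above solvent values of the same time without overlap at both times for Gadd45b, Sesn2, Sesn3, Txnip, Irs2, Bcl6 and Foxo1, and Sesn1 is lower in LBH589 within each tumour.

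The drug effect was compared between the times next. The LBH589 effect at 12 h minus that at 6 h was called by limma for 0 of the 10 genes, without or with the tumour as a block. Of all tested genes 0% were called, or 0.0107% with the block, all lower. Without the block, 0 of the 10 had an unadjusted p under 0.05. The differences ran from -0.21 for Sesn3 (95% interval without the block -0.74 to 0.32) to 0.44 for Gadd45g (-0.37 to 1.24), with Txnip at 0.40 (-0.44 to 1.25). Changes of the drug effect of close to 1 log2 unit thus lie within these intervals, whose spread includes differences in level between tumours. Blocked by tumour, the standard error for Txnip was 0.15 in place of 0.39 (limma adjusted p = 0.414). The effect on Txnip was larger at 12 h than at 6 h in each tumour. Between 6 and 12 h in LBH589, 0 of the 10 genes and 0% of all tested genes were called. Without the block, only Sesn2 had an unadjusted p under 0.05 there (-0.51 ± 0.20, unadjusted p = 0.0244, limma adjusted p = 0.631). With the tumour as a block its adjusted p was 0.0838, and it was lower at 12 h in all 3 tumours. Txnip had 0.43 ± 0.27 (limma adjusted p = 0.750) and was higher at 12 h in all 3 tumours. Its adjusted p with the block, 0.0508, was the lowest of the 10. The blocked fit called 1.99% of all tested genes in LBH589, 0.724% higher and 1.27% lower. In DMSO without the block, 0 of the 10 were called between 6 and 12 h and 0 had an unadjusted p under 0.05. Of all tested genes, 0.0214% were called there, all higher. The blocked fit called 0.311% of them there, 0.220% higher and 0.0911% lower. Sesn2 had -0.38 ± 0.20 there and Sesn3 0.33 ± 0.17 (adjusted p = 1 for both). Blocking by tumour left 0 of the 10 called in either change with time.

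The tumours differed in the level of most of these genes. In a fit of the 4 groups plus the tumour, 7 of the 10 had a limma F-test adjusted p under 0.05 for the tumour, and 37.4% of all tested genes did. Txnip differed most by p (9.18e-05), with means over the 4 arrays of a tumour of 11.10 in MP525, 11.25 in MP567 and 10.55 in MP570. Sesn1 followed (0.000682), with 10.63, 10.88 and 11.28. Irs2 (0.00720), Ccng2 (0.0136), Gadd45g (0.0168) and Gadd45b (0.0312) were each highest in MP567, and Bcl6 (0.0452) was highest in MP525. Sesn2 (0.102), Sesn3 (0.222) and Sod2 (0.0876) did not pass the test. The 4 arrays of a tumour are cultures of 1 tumour, so this test speaks of these 3 tumours. The count was 3 without the LBH589 6 h array of MP567 and 4 without the DMSO 12 h array of MP570, and it was 6 without all arrays of MP525, 4 without those of MP567 and 1 without those of MP570. Txnip, Sesn1 and Irs2 kept the call without each single array. Gadd45b lost it without the LBH589 array of MP567 at 6 or 12 h (0.0892 and 0.0556), the DMSO 12 h array of MP570 (0.0832) or the LBH589 array of MP570 at 6 or 12 h (0.0647 and 0.131). Gadd45g lost it without the LBH589 6 h array of MP567 (0.0594) or the DMSO 12 h array of MP570 (0.0574), and Ccng2 without the LBH589 6 h array of MP567 (0.0551). Bcl6 kept it only without the DMSO 12 h or LBH589 12 h array of MP567 or the LBH589 12 h array of MP570, had 0.0537 to 0.142 otherwise, and was not called after quantile normalization (0.106), median centring (0.112) or with no filter (0.0557).

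The size of the drug effect also differed between tumours for 3 of the 10 genes, Gadd45b, Gadd45g and Sesn1 (limma F-test of tumour by drug, adjusted p = 0.00430, 0.00365 and 0.0320), and for 4.35% of all tested genes. Here the 6 h and 12 h arrays of a tumour served as its repeated measurements. LBH589 minus DMSO for Gadd45b was 1.34 at 6 h and 1.39 at 12 h in MP525, 2.25 and 2.34 in MP567, and 1.71 and 1.67 in MP570. The times of a tumour thus differed by at most 0.0992, while the means of the tumours were 1.37, 2.30 and 1.69. For Gadd45g the difference was -0.25 and 0.04 in MP525, 0.47 and 1.06 in MP567, and 0.26 and 0.69 in MP570. MP525, which showed the smallest effect on both GADD45 genes, also had the highest solvent levels of both, which enter that difference. For Sesn1 it was -0.21 and -0.19 in MP525, -0.54 and -1.003 in MP567, and -0.51 and -0.68 in MP570, so MP567 had the largest rise of Gadd45b and Gadd45g and the largest drop of Sesn1. Sesn2 had its largest mean effect in MP567 too (1.05), and Sesn3 its smallest (0.63), but neither difference passed the test (adjusted p = 0.247 and 0.0927). Without the LBH589 12 h array of MP567, adjusted p was 0.0706 for Gadd45b, 0.0341 for Gadd45g and 0.152 for Sesn1. Across the single arrays left out, adjusted p ran from 0.00132 to 0.0706 for Gadd45b, from 0.00149 to 0.0361 for Gadd45g and from 0.0194 to 0.204 for Sesn1, whose call was kept in 5 of the 12 cases. For Sesn1 the call ended without the DMSO 6 h (0.0694), DMSO 12 h (0.128) or LBH589 12 h (0.204) array of MP525, the DMSO 12 h array of MP567 (0.145), or the LBH589 array of MP570 at 6 or 12 h (0.0551 and 0.0770), and after median centring (0.0548). With every probe set tested singly, none of the 3 calls held (0.137 for Gadd45b, 0.123 for Gadd45g and 0.245 for Sesn1). That setting kept the values of these genes, which have 1 probe set each, and added other probe sets to the fit. With no mean-variance trend Gadd45g alone kept its call (0.0454, against 0.0540 for Gadd45b and 0.176 for Sesn1). Removing MP525 as a whole gave 0.0507 for Gadd45b, 0.315 for Gadd45g and 0.515 for Sesn1, and removing MP567 gave 0.570, 0.114 and 0.275. Sesn3 gained a call without the DMSO 6 h array of MP567 (0.0496) or MP570 (0.0165), and Txnip without the LBH589 6 h array of MP570 (0.0492).

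**Figure D4:**
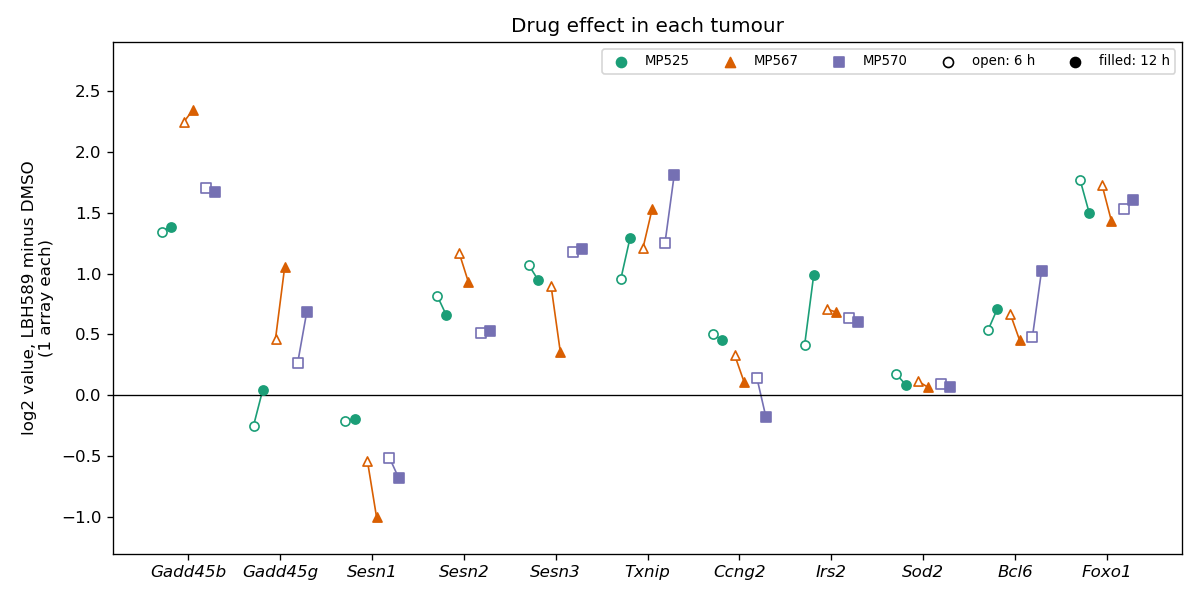
LBH589 minus DMSO on the log2 scale (1 array each) in each tumour at 6 h (open) and 12 h (filled), joined by a line, for the 10 genes and Foxo1. MP567 has the highest points for Gadd45b and Gadd45g and the lowest for Sesn1, and the 6 Foxo1 points lie between 1.43 and 1.77.

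Foxo1 itself, the FOXO gene with the largest LBH589 effect, was set beside these genes array by array. Its log2 values were 9.74, 9.30 and 9.22 in LBH589 at 6 h (MP525, MP567, MP570), against 7.97, 7.58 and 7.70 in DMSO, and 9.66, 9.31 and 9.23 in LBH589 at 12 h, against 8.17, 7.88 and 7.62 in DMSO. Treated and solvent arrays formed separate clusters in Foxo1, and the 12 arrays come from 3 tumours, so no correlation over the arrays is given. A relation to Foxo1 within groups and tumours was not tested. Within tumours, LBH589 minus DMSO for Foxo1 was 1.77, 1.72 and 1.53 at 6 h and 1.495, 1.433 and 1.606 at 12 h (MP525, MP567, MP570). The tumour by drug test did not call Foxo1 (limma adjusted p = 0.966), whereas it called Gadd45b, Gadd45g and Sesn1. In its level, Foxo1 was highest in MP525 in all 4 groups. Bcl6 also had its highest value in MP525 in all 4 groups and matched the Foxo1 order of the tumours in 2 of them. Gadd45b, Gadd45g and Sesn3 matched that order in 1 of the 4 groups, and Sesn1, Sesn2, Txnip, Ccng2, Irs2 and Sod2 in 0. With 3 tumours few orders are possible, and matches among all genes were not counted, so these counts do not rank likeness to Foxo1. Txnip and Irs2 were highest in MP567, then MP525, then MP570, in all 4 groups (Irs2 by less than the printed decimals in LBH589 at 12 h), and Sesn1 was highest in MP570 in all 4.

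Gadd45b had the largest mean effect of the 10, and the named genes with the most similar values over the 12 arrays were Sipa1 (Pearson r = 0.987), Cited4 (0.986), Slc9a3r1 (0.981), Trim62 (0.976) and Atp1b2 (0.976). These are descriptions over arrays that share treatments and tumours. All 5 had positive LBH589 effects, from 0.68 for Cited4 to 1.49 for Slc9a3r1 at 6 h. That sign follows from the choice, since the genes were picked over treated and solvent arrays together.

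Around these genes, the FOXO factors and other named FOXO targets gave a mixed picture. Of 4 FOXO genes tested, 2 were called higher and 0 lower at both times, Foxo1 and Foxo6 (0.67 and 0.70, limma adjusted p = 0.0233 and 0.0164). With the block 3 of the 4 were called higher. Of 26 other FOXO targets tested, 4 were called higher and 0 lower at 6 h, and 5 higher and 1 lower at 12 h. In the blocked fit there were 7 and 3 at 6 h, and 8 and 5 at 12 h, against 34.0% and 37.1% of all tested genes in either direction. Their median log2 fold changes were 0.11 and 0.05. Without the block, 15.8% of all tested genes were called in either direction at 6 h and 18.2% at 12 h. The share of this list called in either direction without the block was thus near that of all genes. Most of its calls were higher, while 8.49% of all tested genes were called higher at 6 h and 9.13% at 12 h. The largest were Ppargc1a, a coactivator of mitochondrial genes (1.83 and 1.84, limma adjusted p = 0.00315 and 0.00257), the p21 gene Cdkn1a (1.76 and 1.70, 0.0312 and 0.0321), the BIM gene Bcl2l11 (1.01 and 0.80, 0.000233 and 0.000702) and the autophagy gene Map1lc3b (0.82 and 0.70, 0.00224 and 0.00462). Of these, the call of Bcl2l11 held without each array and each tumour. Foxo6 lost its call without any of 5 arrays at 6 h (all those of 6 h but the LBH589 array of MP570, highest adjusted p = 0.0808) and without the DMSO array of MP570 at 12 h (0.0589). Cdkn1a lost it at each time without the LBH589 array of MP525 or MP570 or the DMSO array of MP567 (highest 0.105 at 6 h and 0.112 at 12 h). Both lost it without MP525 or MP570 as a whole. Blocked by tumour with all arrays, both were called at both times (highest limma adjusted p = 0.0003825, for Foxo6 at 6 h). Ppargc1a lost it without MP570 as a whole (0.0822 and 0.0538), and Map1lc3b without MP525 or MP570 (highest 0.0576 and 0.0796).

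Relatives and partners of the 10 genes moved in both directions: of 17 tested, 4 were called higher and 2 lower at each time, with medians of -0.003 and 0.03. Over all tested genes, 8.49% were called higher and 7.31% lower at 6 h, and 9.13% and 9.07% at 12 h. The blocked fit gave 6 and 3 at 6 h, and 6 and 5 at 12 h, where it called 34.0% and 37.1% of all tested genes in either direction. Mlxipl, which encodes the glucose-sensing factor known to drive Txnip, rose by 1.20 and 1.20 (limma adjusted p = 0.000463 and 0.000377), and that call held without each array and each tumour. Arrdc3, an arrestin-domain relative of Txnip, had -1.03 and -0.83 (0.00395 and 0.0104), and Txnrd2, the mitochondrial thioredoxin reductase, had -0.56 and -0.51 (0.00322 and 0.00436). Txnip and its relative Arrdc3 were thus called in opposite directions at both times. Bcl6b, a close relative of Bcl6, rose by 0.65 and 0.66 (0.0179 and 0.0144). The calls of Arrdc3 and Txnrd2 held without each single array and were lost without either MP570 or another tumour as a whole (highest adjusted p = 0.186 for Arrdc3 and 0.0661 for Txnrd2). That of Bcl6b was lost at 6 h without the DMSO or LBH589 array of MP567 or the DMSO array of MP570 (highest 0.0654) and at 12 h without the DMSO array of MP570 (0.0565), and without 2 of the tumours at 6 h and each of the 3 at 12 h. Gadd45a was not analysed here.

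Genes between the sestrins and mTORC1 were called with both signs. Of 18 tested, 6 were called higher and 2 lower at 6 h, and 7 and 3 at 12 h, with medians of 0.19 and 0.27, against 15.8% and 18.2% of all tested genes called in either direction. Blocked by tumour, the counts were 7 and 4, and 9 and 4, against 34.0% and 37.1% of all tested genes. Mios and Seh1l, subunits of the GATOR2 complex that sestrins bind, had -1.01 and -0.79 (limma adjusted p = 0.000515 and 0.00163) and -0.99 and -0.89 (0.000194 and 0.000301). Nprl2, a subunit of the GATOR1 complex that switches mTORC1 off, rose by 1.19 and 1.25 (0.00417 and 0.00271), and Castor2, of the CASTOR family that includes an arginine sensor, by 1.27 and 1.04 (0.000530 and 0.00125). These calls held without each array and each tumour, except that of Nprl2 without MP525 as a whole (0.0902 and 0.0599). The named subunits do not stand for their whole complexes. Of the other GATOR2 genes, Wdr24 and Wdr59 were called at neither time and Sec13 only at 12 h. Of the other GATOR1 genes, Depdc5 was called at both times and Nprl3 at neither.

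Upstream, of 11 insulin, PI3K and AKT genes tested, 3 were called higher and 2 lower at 6 h, and 2 and 2 at 12 h, against 15.8% and 18.2% of all tested genes in either direction. Blocked by tumour, they were 5 and 2, and 3 and 3, against 34.0% and 37.1%. The AKT genes Akt1 (-0.42 and -0.39, limma adjusted p = 0.0217 and 0.0251) and Akt2 (-0.53 and -0.49, 0.0225 and 0.0271) were called lower. Sgk1, an AKT-related kinase gene (0.87 and 0.82, 0.0113 and 0.0130), and Pdpk1, the gene of the kinase that activates AKT and SGK1 (0.58 and 0.42, 0.00358 and 0.0167), were called higher. The calls of Akt1 and Akt2 were lost at each time without the LBH589 array of MP525 or MP570 or the DMSO array of MP567 or MP570 (highest adjusted p = 0.0898 at 6 h and 0.101 at 12 h, both for Akt2). Sgk1 lost its call at 12 h without the DMSO array of MP567 (0.0508), and Pdpk1 lost it at 12 h without the LBH589 array of MP525 or the DMSO array of MP567 (highest 0.0563). Leaving out whole tumours ended the calls of Akt1, Akt2 and Sgk1 for at least 2 of the 3 tumours at each time, and that of Pdpk1 for 1 at 6 h and 2 at 12 h.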

How the data were processed

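Total RNA of 12 cultures was measured, 1 Affymetrix whole-transcript array each. The authors deposited 1 value per probe set and array on a log2 scale, the base being judged from a lowest value of 1.501 and a highest of 14.5. Per the submitters' processing notes the only program named is Agilent Feature Extraction 10.7.3.1, made for other arrays, and summarisation and normalization are not given in the sources used here. The values were used as deposited.

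Of 41345 probe sets, 23521 named 1 gene in the array annotation, 1814 named several and were not used, and 16010 were not listed. Entrez numbers matched 23328 of the 23521 to RefSeq. The brightest probe set stood for a gene. Genes above the 25th percentile of the array on at least 3 of 12 arrays were tested (18652 of 22180). The number of arrays limits the precision.

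Comparisons came from 1 limma 3.58.1 fit of the 4 group means in R 4.3.3 (mean-variance trend, 8 residual degrees of freedom), with two-sided p-values adjusted by Benjamini-Hochberg over 18652 genes. Tumour effects were moderated F-tests in fits with the tumour, that of tumour by drug with 4 residual degrees of freedom. The tumours pair the arrays by their labels: over the 22180 genes, deviations from the group means correlated at 0.388 to 0.722 within the 18 same-tumour pairs and at -0.454 to -0.0413 across tumours and groups. Alternatives were a fit blocked by tumour (6 residual degrees of freedom), a random block, quantile normalization, median centring, other filters, the mean of probe sets, every probe set on its own, no variance trend, and leaving out arrays or tumours. The fit was tested on simulated data. Members were named by symbol. For context lists the text names up to 4 genes called at both times with the largest mean effect, and for Gadd45b the 5 most correlated genes. The members and lists were chosen with earlier results of these data known. Comparisons at 6 and 12 h with the changes in time share arrays.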

Additional observations from a re-analysis of the deposited data

Results flagged for a closer look

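The LBH589 effect differed between the 3 tumours for Gadd45b (limma F-test adjusted p = 0.00430), Gadd45g (0.00365) and Sesn1 (0.0320), by a test of the tumour by drug term. All 3 calls ended when every probe set was tested singly (0.137, 0.123 and 0.245). Each of the 3 genes has 1 probe set, so that setting kept its values and added other probe sets to the fit. The calls of Gadd45b (0.0540) and Sesn1 (0.176) ended without the mean-variance trend. Mean effects over both times were 1.37 in MP525, 2.30 in MP567 and 1.69 in MP570 for Gadd45b, -0.10, 0.76 and 0.47 for Gadd45g, and -0.20, -0.77 and -0.60 for Sesn1. Each tumour was measured in 1 culture per treatment and time, so a difference between tumours and a difference between cultures cannot be told apart.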

How the results depend on the processing

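Across 24 alternatives, none of the 12 called drug effects of single genes changed direction, and 43 of their 288 values lost the call, 23 without a single array, 17 without a whole tumour and 3 under another setting, all 3 for Irs2 at 6 h (limma adjusted p = 0.0526 to 0.0653). Many of these alternatives could not change a direction. The blocks, the filters, the probe set settings and the variance trend kept these fold changes as they were. So did leaving out an array of the other time. Among the values not called otherwise, 9 gained a call. With the tumour as a fixed replicate block, 1 of the 10 genes was called lower at 6 h and 1 at 12 h (Sesn1), against 0 and 0. The random replicate block gave 0 at 6 h and 1 at 12 h, and of the calls gained with the fixed block at 6 h it did not call Sesn1 or Ccng2. The block changed no other call than those given in the report. Without single arrays or whole tumours, 2 to 6 genes were called higher at 6 h and 3 to 6 at 12 h, 0 lower at 6 h and 0 to 1 lower at 12 h, 1 to 8 differed between tumours, and 0 to 4 had a drug effect that differed between tumours. Testing each probe set singly, 4 genes differed between tumours in level and 0 in the drug effect, a setting that adds probe sets to the adjustment. Without the mean-variance trend, 1 (Gadd45g) differed in the drug effect. The cause was not tested. No count or signal over background was available to set a limit of detection.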
